A study of Rattus norvegicus with 48 samples.

Results

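Fatty acid synthesis in the liver of rats on a steatohepatitis diet was described by the RNA of 6 genes, Srebf1, Acly, Acaca, Fasn, Scd and Me1. The genes were set by a list of identifiers that uses no values, but the list was chosen with earlier results of these data known. They are 6 of 32662 genes in the tables. In the tables they are listed as ENSRNOG00000003463 (Srebf1), ENSRNOG00000016924 (Acly), ENSRNOG00000034013 (Acaca), ENSRNOG00000045636 (Fasn), ENSRNOG00000013552 (Scd) and ENSRNOG00000009715 (Me1). All 6 were among the 12756 genes that passed the filter on low counts, with at least 684 reads in every animal. The animals were male rats of the Wistar strain (RjHan:WI), aged 6 weeks and kept in pairs. Liver RNA was taken after 4, 8 or 12 weeks of feeding from 8 animals in each of the 6 groups. One diet was deficient in choline and defined by L-amino acids (CDAA, in the labels CDDA Cholesterol 1pc), with 11% protein, 31% fat and 58% carbohydrates by kcal, 0.17% methionine and 1% added cholesterol. The control diet was supplemented with choline (CSAA), with 12% protein, 16% fat, 72% carbohydrates and 0.4% methionine. The diets thus differed in choline, methionine, fat, carbohydrate and cholesterol at the same time, and the contributions of these components cannot be told apart. Cage partners are not named in the labels and cages were not modelled.

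Fatty acid synthesis turns carbohydrate carbon into fat in the cytosol of hepatocytes. ATP citrate lyase (Acly) cleaves citrate into acetyl-CoA, acetyl-CoA carboxylase 1 (Acaca) makes malonyl-CoA from it, and fatty acid synthase (Fasn) builds palmitate with NADPH, part of which comes from malic enzyme 1 (Me1). Stearoyl-CoA desaturase (Scd) then places a double bond in the saturated product, and SREBP-1, the transcription factor encoded by Srebf1, is a known activator of the genes of this pathway in response to insulin, with further input from LXR and from the carbohydrate-responsive factor ChREBP.

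Promoter sequences are shown for the regulator (both starts annotated for Srebf1), for the gene with the largest and for the gene with the smallest decrease at week 12 (Acly and Me1), since these genes moved in the same direction. Each run holds the 250 bases before an annotated transcript start, 5′ to 3′ on the strand of the gene, from RefSeq (GRCr8, a later build than the Rnor_6.0 on which the reads were counted). The windows lie on the minus strand at chr10:45529165-45529414 and chr10:45519011-45519260 for Srebf1, at chr10:85963632-85963881 for Acly and at chr8:96540245-96540494 for Me1. Capitals mark the letters of an NF-Y box (CCAAT), a GC box (GGGCGG) and the core of an antioxidant response element (TGACNNNGC), each searched on both strands.
Srebf1, upstream start: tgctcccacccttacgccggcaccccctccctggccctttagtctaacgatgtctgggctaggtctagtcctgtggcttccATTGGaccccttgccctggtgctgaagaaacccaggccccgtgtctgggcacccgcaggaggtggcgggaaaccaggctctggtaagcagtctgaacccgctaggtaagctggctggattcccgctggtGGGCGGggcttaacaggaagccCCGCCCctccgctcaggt
Srebf1, downstream start: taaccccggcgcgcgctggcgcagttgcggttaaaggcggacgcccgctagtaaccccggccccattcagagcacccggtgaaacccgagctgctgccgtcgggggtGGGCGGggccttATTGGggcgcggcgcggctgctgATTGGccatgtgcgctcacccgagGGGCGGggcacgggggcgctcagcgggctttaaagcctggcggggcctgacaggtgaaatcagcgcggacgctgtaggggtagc
Acly: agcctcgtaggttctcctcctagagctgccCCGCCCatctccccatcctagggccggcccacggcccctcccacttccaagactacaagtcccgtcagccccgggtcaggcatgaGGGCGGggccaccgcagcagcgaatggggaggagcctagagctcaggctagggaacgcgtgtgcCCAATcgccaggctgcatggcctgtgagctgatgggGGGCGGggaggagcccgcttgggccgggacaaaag
Me1: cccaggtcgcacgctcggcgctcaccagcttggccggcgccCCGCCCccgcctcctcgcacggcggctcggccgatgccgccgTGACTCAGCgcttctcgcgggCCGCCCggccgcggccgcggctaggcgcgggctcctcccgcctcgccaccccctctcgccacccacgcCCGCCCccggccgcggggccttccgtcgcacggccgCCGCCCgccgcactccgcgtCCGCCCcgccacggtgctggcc
The NF-Y box stood in both Srebf1 windows and in the Acly window, and in 34% of all 33469 windows of this length. The GC box stood in both Srebf1 windows, in Acly and 5 times in Me1, and in 30.5% of all windows. The TGACNNNGC letters stood once in Me1 and once in the window of Scd, and in 10.1% of all windows. The E-box CACGTG (5.59% of all windows) and the core TCACNCCAC of a sterol regulatory element (0.974%) stood in none of the 5 windows of Srebf1, Acly, Me1 and Scd. No 2 of these motifs share letters in the windows, and the matches are descriptions of sequence only. Windows for Acaca and Fasn were not used here.

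The reads on genes numbered 13619274 to 22284359 per animal. All 48 livers were fitted together with edgeR (quasi-likelihood test), and a gene passed the thresholds when its p, adjusted by Benjamini-Hochberg over all tested genes, was under 0.01 and its log2 fold change was 1 or more in size. Levels are given as CPM, the reads of a gene relative to all reads counted in the library, scaled with TMM factors, which adjust each library for its composition. These factors differed between the diets, and at week 12 their mean was 1.37 ± 0.0515 (SD, n = 8) on CDAA against 0.777 ± 0.0441 (SD, n = 8) on CSAA. With library size alone the median log2 fold change of all tested genes between the diets was therefore 0.39, 0.65 and 0.73 at weeks 4, 8 and 12, against -0.02, 0.05 and -0.09 with TMM. Calls that differ between the scalings are given beside the results. Animals 303, 504, 908 and 1102 were known from earlier results of these data to stand apart. The library labelled CDAA week 4, animal 303, correlated better with the CSAA livers of week 4 (median Pearson's r of log2 CPM across genes 0.971) than with its own group (0.949), the lowest such value of the 48 animals, and its label was kept. Animals 908 (0.961) and 504 (0.963) followed, while animal 1102 lay at 0.979 within the range of 0.972 to 0.989 of the other 44 animals. The paper dropped a sample named 906_CSAA from its proteomics at week 12 as an outlier. Animal 906 lay at 0.976 here and was kept.

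All 6 genes were lower on CDAA than on CSAA after 12 weeks, by 2.03-fold for Me1 to 9.96-fold for Acly. At weeks 4 and 8, Acly and Fasn passed the thresholds and the other 4 did not. The 6 genes together took 0.734% of all reads at the median of the CSAA livers of week 12 (range 0.527 to 1.64%) and 0.373% on CDAA (0.259 to 0.435%), so that every CDAA liver spent a smaller share of its reads on them than every CSAA liver. Most of this sum was Scd, with medians of 0.533% on CSAA and 0.291% on CDAA. Taken singly, the read shares of Scd and Acly did not overlap between the diets at week 12, whereas those of Srebf1, Acaca, Fasn and Me1 did. In RPKM (reads scaled to gene length and library size), 4.21% of all tested genes did not overlap and were lower at that week. At week 4 the median share of the 6 genes together was 0.741% on CSAA and 0.445% on CDAA, and at week 8 it was 0.427% and 0.299%, with overlapping ranges. In liver homogenate, fewer cells of a type and less RNA per cell cannot be told apart.

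**Figure D1:**
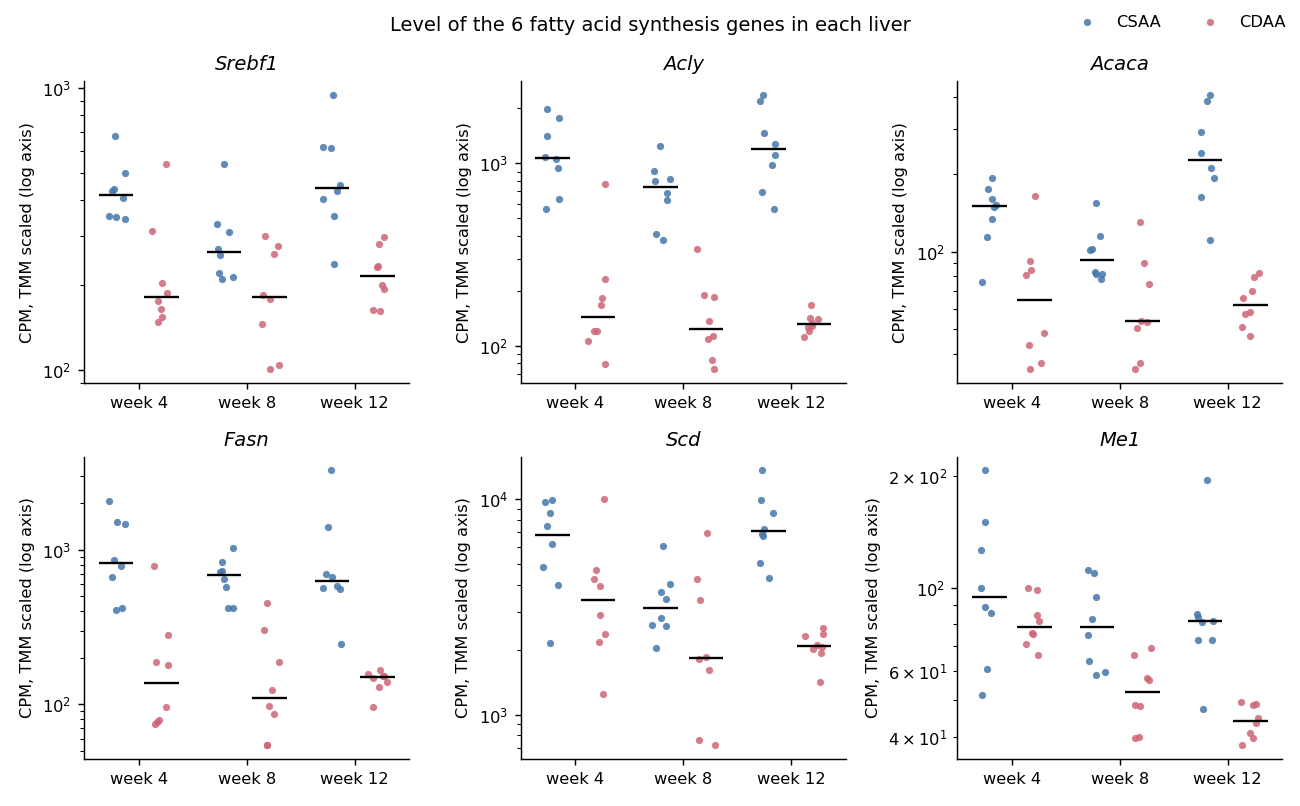
Level of each gene (y axis, CPM with TMM scaling, log axis) in every liver by week (x axis) and diet (colour), with 1 point per animal and a black bar at the group median of 8 animals. At week 12 the CDAA points of Acly, Acaca, Fasn and Scd lie below all CSAA points, whereas the diets overlap for Srebf1 and Me1. In this scaling 23.6% of all tested genes did not overlap and were lower on CDAA at week 12.

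The regulator Srebf1 ranged on CSAA from 343 to 677 CPM at week 4 (median 418), from 210.1 to 537 CPM at week 8 (median 262) and from 238 to 946 CPM at week 12 (median 443). On CDAA it ranged from 149 to 536 CPM (median 182), from 101 to 298 CPM (median 182) and from 162 to 296 CPM (median 216). With this scaling the CDAA medians were lower at all 3 weeks, and the diets overlapped at each. The overlap was through animal 303 alone at week 4 and through animals 701, 702 and 704 at week 8. At week 12 it was through animals 1103 and 1105. As a share of all reads, the week 8 median was 0.0235% on CDAA and 0.0228% on CSAA. Srebf1 fell at week 12, with a log2 fold change of -1.21 ± 0.25 (SE, adjusted p = 3.7e-05). With library size alone this value was -0.39 (adjusted p = 0.115), so that the call at week 12 rested on the scaling. Relative to the median of all tested genes Srebf1 differed by -1.12 on the log2 scale under either scaling. A change of scaling moves all genes nearly alike, so this match was fixed in advance and does not bear on the call. The values at week 4 (-0.89 ± 0.25, adjusted p = 0.00198) and week 8 (-0.60 ± 0.25, adjusted p = 0.0282) did not reach the fold threshold. With library size alone the same test gave -0.54 (adjusted p = 0.036) at week 4 and -0.0006 (adjusted p = 0.998) at week 8.

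Acly, which supplies acetyl-CoA, showed the largest fold change of the 6 genes at every week. On CSAA it ranged from 562 to 1975 CPM at week 4 (median 1068), from 379.9 to 1245 CPM at week 8 (median 744) and from 563 to 2371 CPM at week 12 (median 1194). On CDAA it ranged from 79.7 to 766 CPM (median 144), from 74.1 to 341 CPM (median 124) and from 112 to 166 CPM (median 131). At week 4 only animal 303 reached into the CSAA range, 7 of 8 CDAA livers lay at 233 CPM or less, and at weeks 8 and 12 the diets did not overlap, except for animal 704 at week 8 in RPKM. Acly fell at all 3 weeks, with log2 fold changes of -2.41 ± 0.36 (SE, adjusted p = 1.81e-07), -2.26 ± 0.36 (adjusted p = 3.28e-07) and -3.32 ± 0.38 (adjusted p = 9.75e-11). It passed both thresholds under every alternative that was run, with log2 fold changes between -3.03 and -2.13 at week 4, -2.66 and -1.65 at week 8, and -3.50 and -2.32 at week 12.

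Acaca, which commits acetyl-CoA to synthesis, ranged on CSAA from 76.4 to 193 CPM at week 4 (median 150.5), from 78.4 to 155 CPM at week 8 (median 92.4) and from 111 to 408 CPM at week 12 (median 227). On CDAA it ranged from 35 to 164 CPM (median 64.7), from 34.7 to 131 CPM (median 53.5) and from 46.7 to 82.8 CPM (median 62.0). The diets overlapped in 4 CDAA animals at week 4 and in 2 at week 8, and were apart at week 12, where 3 CDAA livers overlapped in RPKM. The log2 fold change was -0.98 ± 0.27 (SE, adjusted p = 0.00135) at week 4, -0.61 ± 0.27 (adjusted p = 0.0358) at week 8 and -1.97 ± 0.27 (adjusted p = 1.36e-08) at week 12, of which the last passed both thresholds. At week 12 it also passed with library size alone, where the value was -1.16.

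Fasn, which builds the fatty acid chain, ranged on CSAA from 406 to 2067 CPM at week 4 (median 816), from 419 to 1025 CPM at week 8 (median 681) and from 246 to 3250 CPM at week 12 (median 623). On CDAA it ranged from 74.2 to 778 CPM (median 138), from 54.4 to 453 CPM (median 111) and from 96.6 to 167 CPM (median 150.2). Animal 303 at week 4 and animal 704 at week 8 were the only CDAA livers within the CSAA range in this scaling, whereas in RPKM 1 liver at week 4, 2 at week 8 and 7 of 8 at week 12 were. The RPKM overlap at week 12 was with the lowest CSAA liver alone, animal 903 (19.7 RPKM). The next CSAA liver, animal 905, had 45.5 RPKM, and the highest CDAA liver, animal 1108, had 24.6 RPKM. The highest CSAA liver at week 12, animal 906, lay 13.2-fold above the lowest, animal 903. Fasn fell at all 3 weeks, with log2 fold changes of -2.22 ± 0.47 (SE, adjusted p = 6.36e-05), -1.98 ± 0.46 (adjusted p = 0.000192) and -2.80 ± 0.48 (adjusted p = 1.18e-06), and with every alternative that was run.

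Scd, which makes monounsaturated fatty acids, was the most abundant of the 6 per length in every liver group. On CSAA it ranged from 2151 to 9896 CPM at week 4 (median 6812), from 2039 to 6031 CPM at week 8 (median 3112) and from 4271 to 13521 CPM at week 12 (median 7064). On CDAA it ranged from 1242 to 9972 CPM (median 3409.8), from 721 to 6961 CPM (median 1830.1) and from 1418 to 2511 CPM (median 2074). At weeks 4 and 8 the highest CDAA liver, animal 303 and animal 704, lay above all CSAA livers of the week, and at week 12 all CDAA livers lay below the lowest CSAA liver. The log2 fold change was -0.75 ± 0.35 (SE, adjusted p = 0.0588) at week 4, -0.35 ± 0.35 (adjusted p = 0.36) at week 8, where library size alone gave 0.23, and -1.90 ± 0.36 (adjusted p = 7.56e-06) at week 12. Scd thus passed the thresholds at week 12, also with library size alone (-1.08, adjusted p = 0.00279).

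Me1, a source of NADPH, ranged on CSAA from 51.6 to 207 CPM at week 4 (median 94.6), from 58.6 to 112 CPM at week 8 (median 78.8) and from 47.3 to 195 CPM at week 12 (median 81.5). On CDAA it ranged from 66.3 to 99.9 CPM (median 78.9), from 39.6 to 69.2 CPM (median 52.7) and from 37.9 to 49.4 CPM (median 44.1). At week 4 all CDAA livers lay within the CSAA range, and at week 12 animals 1103, 1105 and 1106 overlapped only with the lowest CSAA liver, animal 903. The log2 fold change was -0.42 ± 0.21 (SE, adjusted p = 0.0733) at week 4, -0.62 ± 0.21 (adjusted p = 0.00643) at week 8 and -1.02 ± 0.21 (adjusted p = 2.28e-05) at week 12. The call at week 12 lay at the fold threshold and was lost under 8 of 11 other settings, among them limma-voom (-0.92), library size alone (-0.21) and the RPKM values (-0.11), and without animal 906 (-0.76) or animal 1102 (-0.995). The ratio of counts to RPKM varied by 14.6% between animals for Me1 and by at most 1.12% for the other 5 genes.

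Counted over the 6 genes, 2 passed both thresholds and were lower on CDAA at week 4, against 4.27% of all tested genes that were lower. At week 8 there were 2 as well, against 12.1%, and at week 12 all 6, against 11.3%. None of the 6 was higher on CDAA past the thresholds, against 15.7%, 18.1% and 19.4% of all tested genes at weeks 4, 8 and 12. With library size alone the numbers were 2, 2 and 4, against 3213, 4837 and 5175 of the 12756 tested genes that passed in either direction. With limma-voom they were 3, 2 and 5, against 2494, 3863 and 3909 of these genes. Over the 6 genes the median log2 fold changes of the 3 weeks were -0.94, -0.62 and -1.94, against the -0.02, 0.05 and -0.09 of all tested genes. The week 4 number rested on the liver of animal 303. Without it 5 of the 6 genes passed the thresholds there, against 2910 of all tested genes in either direction. The log2 fold changes were then -3.03 for Acly, -2.87 for Fasn, -1.26 for Acaca, -1.18 for Srebf1, -1.10 for Scd and -0.46 for Me1. In TMM scaled CPM the values of the 2 diets did not overlap for 0 of the 6 genes at week 4 (4.6% of all tested genes did not overlap and were lower), for 1 at week 8 (23%) and for 4 at week 12 (23.6%). In RPKM, which are not scaled for composition, they did not overlap for 0 genes at week 4 (1.69%), 0 at week 8 (9%) and 2, Acly and Scd, at week 12 (4.21%).

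**Figure D2:**
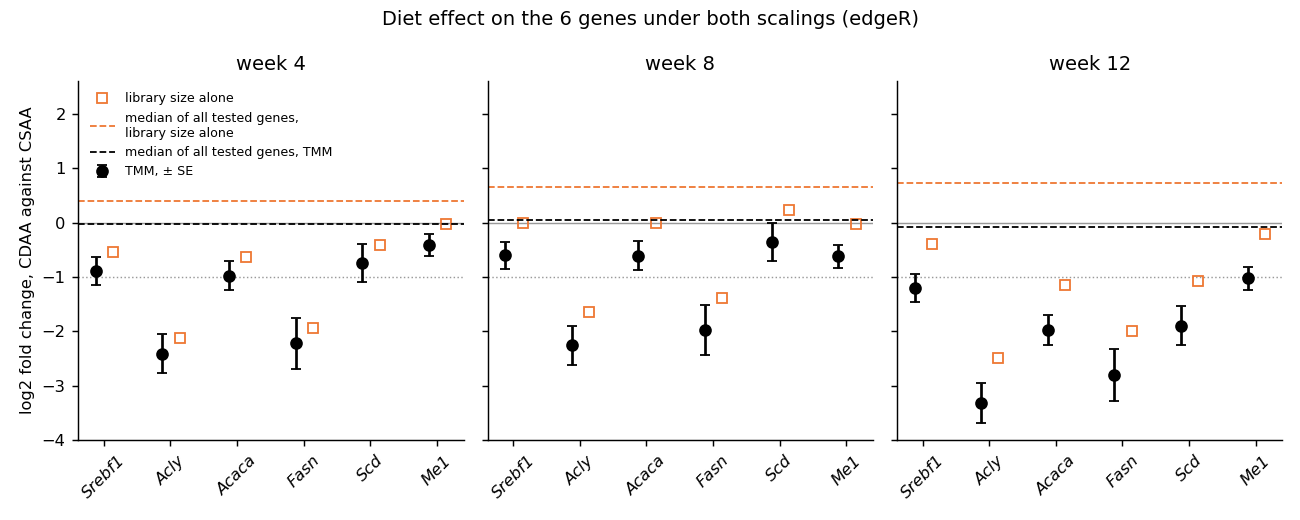
Log2 fold change of CDAA against CSAA (y axis) for each gene (x axis) at weeks 4, 8 and 12, with filled circles and SE bars for the edgeR fit with TMM, open squares for library size alone, dashed lines at the median of all 12756 tested genes under each scaling and a dotted line at the fold threshold. Acly and Fasn lie below -1 at each week under both scalings, and with TMM the other 4 genes lie lowest at week 12.

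The sizes of the diet effects were compared between the genes of a pair by the ratio of their counts within each liver, which does not depend on the scaling of the library. All 15 pairs were compared at 3 weeks with two-sided exact permutation tests over the 12870 splits of 16 animals, adjusted over the 45 tests, and 8 pairs passed an adjusted p of 0.01 at each week. The share of all pairs of tested genes whose ratios differ between the diets was not computed, so this count is not a trait particular to these genes. At weeks 4 and 8 the 8 pairs were those that set Acly or Fasn against one of Srebf1, Acaca, Scd and Me1. At week 4 the CDAA livers had a log2 ratio of Scd to Acly of 4.29 ± 0.44 (SD, n = 8) and the CSAA livers one of 2.46 ± 0.33 (SD, n = 8), a difference of 1.83 ± 0.19 (SE) without overlap of the livers (exact permutation test, adjusted p = 0.000538). This difference was 1.66 ± 0.26 at week 8 and 1.34 ± 0.20 at week 12 (exact permutation test, adjusted p = 0.0011 at both weeks), where the livers overlapped. The ratio of Acly to Me1 differed by -2.38 ± 0.33, -1.72 ± 0.25 and -2.25 ± 0.20 at the 3 weeks (exact permutation test, adjusted p = 0.000538, 0.000874 and 0.000538). In total 6 pairs differed at all 3 weeks, namely Acly with each of Srebf1, Acaca, Scd and Me1 and Fasn with Srebf1 and Me1.

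For the pairs within these 2 groups of genes the tests were mostly not passed. Between Fasn and Acly the log2 ratio differed by 0.17 ± 0.16 (SE), 0.02 ± 0.17 and 0.77 ± 0.22 at the 3 weeks in order, the last with an adjusted p of 0.0101 (exact permutation test) just outside the threshold. For Scd and Acaca it was 0.28 ± 0.20, 0.04 ± 0.22 and 0.05 ± 0.14, and at week 12 the livers of both diets lay between 4.61 and 5.48 in this ratio. Scd and Acaca differed from Me1 at week 12 only, by -0.91 ± 0.20 (exact permutation test, adjusted p = 0.0011) and -0.96 ± 0.23 (adjusted p = 0.00291), and the ratios of Fasn to Scd and of Fasn to Acaca passed at weeks 4 and 8 but not at week 12 (adjusted p = 0.109 and 0.129). Whether these differences changed between weeks was not tested.

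**Figure D3:**
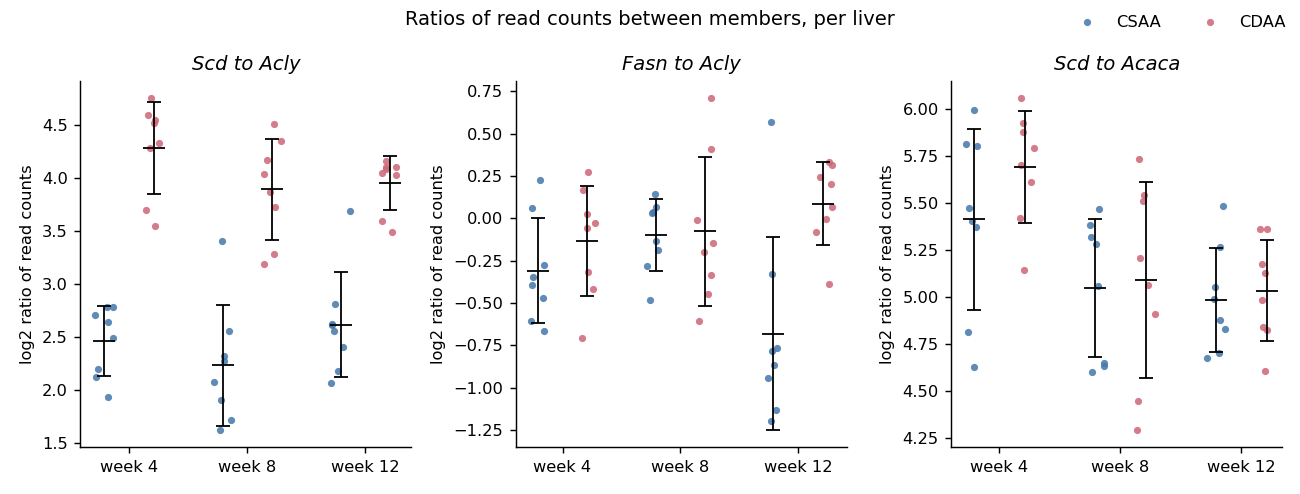
Log2 ratio of read counts of Scd to Acly, Fasn to Acly and Scd to Acaca (y axis) in every liver by week (x axis) and diet (colour), with 1 point per animal and bars for mean ± SD of 8 animals. Scd to Acly lies higher on CDAA at each week, and Scd to Acaca differs by 0.28 or less between the diets.

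Each week was compared with its own CSAA livers, and on this control diet the genes also moved with time. From week 8 to week 12 on CSAA, Acaca rose by a log2 fold change of 1.33 ± 0.27 (SE, adjusted p = 7.24e-05) and Scd by 1.19 ± 0.35 (adjusted p = 0.00545), and these 2 of 6 genes stood against 0.713% of all tested genes that rose past the thresholds. The medians of Acaca went from 92.4 to 227 CPM and those of Scd from 3112 to 7064 CPM. Srebf1 had a log2 fold change of 0.79 ± 0.25 (adjusted p = 0.00942), below the fold threshold. Scd lost its call with the correction for gene length, in the RPKM values (1.06, adjusted p = 0.0109) and without 1 of 6 single animals, among them animal 906 (1.03, adjusted p = 0.0189), whereas Acaca kept it throughout. From week 4 to week 8 all 6 log2 fold changes on CSAA lay between -0.96 and -0.41, and none passed the thresholds with edgeR (2 at an unadjusted p under 0.05, 0 with limma-voom and DESeq2), against 0.047% of all tested genes. Between weeks 4 and 12 on CSAA none of the 6 passed (1 at an unadjusted p under 0.05, 0 with limma-voom and DESeq2), against 2.68% of all tested genes, and Acaca was closest with 0.80 ± 0.26 (adjusted p = 0.0141).

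On CDAA none of the 6 genes passed the thresholds between any 2 weeks with edgeR, limma-voom or DESeq2. The log2 fold changes lay between -0.62 and -0.16 at week 8 against week 4 (1 gene at an unadjusted p under 0.05), between -0.36 and 0.19 at week 12 against week 8 (0 genes) and between -0.92 and -0.10 at week 12 against week 4 (3 genes). Without animal 303 the values at week 8 against week 4 were 0.29 for Fasn, 0.09 for Acly and 0.12 for Acaca, and those at week 12 against week 4 were 0.03 for Fasn, 0.19 for Srebf1 and 0.09 for Acaca, so the shared negative sign rested on that liver. Of all tested genes 5.02%, 1.43% and 10.6% passed the thresholds in these comparisons. Me1 had an adjusted p of 0.000291 from week 4 to week 12 at -0.89 ± 0.21 (SE), and its CDAA medians were 78.9, 52.7 and 44.1 CPM. With library size alone this value was -0.53 (adjusted p = 0.033).

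Whether the effect of diet changed with time was tested as an interaction in the same fit, on the livers of the comparisons above. From week 8 to week 12 the log2 diet effect of Acaca changed by -1.36 ± 0.37 (SE, adjusted p = 0.00408), 1 of 6 genes against 1.09% of all tested genes that passed in this direction and 2.92% in the other. Scd had a larger value of -1.55 ± 0.50 with an adjusted p of 0.0136, and Acly -1.06 ± 0.49 with 0.0911. Between these weeks the log2 fold change of Acaca was 1.33 on CSAA and -0.04 on CDAA. That of Scd was 1.19 on CSAA and -0.36 on CDAA, and that of Acly was 0.86 and -0.20. The call of Acaca was lost under 6 of 10 other settings, among them limma-voom (adjusted p = 0.0122) and library size alone (-1.14, adjusted p = 0.0105), and without animal 704 (adjusted p = 0.0129). Without animals 303, 504, 908 and 1102 both Acaca and Scd (-1.67, adjusted p = 0.00651) passed. Between weeks 4 and 8, and likewise between weeks 4 and 12, none of the 6 passed with edgeR, limma-voom or DESeq2 (0 and 3 at an unadjusted p under 0.05), against 4.25% and 5.04% of all tested genes.

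Animals of the same group mostly differed widely in these genes, though less so on CDAA at week 12. The SD of log2 CPM of Fasn was 0.867, 0.452 and 1.10 (n = 8 each) on CSAA at weeks 4, 8 and 12, and 1.19, 1.11 and 0.247 on CDAA. At week 8 on CDAA the SD of Scd (1.15) was larger than that of 99.4% of all tested genes and that of Fasn larger than that of 99.3%. Me1 on CDAA at week 4 had an SD of 0.213, below the median of 0.257 of all tested genes. At week 12 on CDAA the 6 genes had SDs of 0.148 (Me1) to 0.324 (Srebf1), and the highest liver exceeded the lowest by 1.3-fold for Me1 to 1.82-fold for Srebf1. The median SD of all tested genes was 0.171 in this group, near that of Acly (0.173) and above that of Me1. The SDs of Srebf1, Acaca, Scd and Fasn were larger than those of 83.7%, 80%, 73.1% and 72% of all tested genes in this group. On CSAA at week 12 the median SD was 0.298. On CSAA at the same week the highest exceeded the lowest by 3.17-fold for Scd to 13.2-fold for Fasn. The same animals stood high or low in several genes. On CDAA at week 8, animal 704 was highest and animals 706 and 707 were the 2 lowest in all 6 genes, and on CSAA at week 12, animal 906 was highest in all genes but Acly and animal 903 was lowest in Srebf1, Acly, Fasn and Me1.

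With the group means removed, all 15 pairs of the 6 genes varied together between the 48 livers, with Pearson's r between 0.56 and 0.93 and Spearman's rho between 0.41 and 0.92 (permutation within groups, two-sided, 100000 resamples, largest adjusted p over 15 pairs 0.00036 for r and 0.0082 for rho). The share of all pairs of tested genes that vary together to this degree was not computed, so the count is not a trait particular to these genes. The closest pair was Fasn and Acly, with r = 0.93 and rho = 0.92 (adjusted p = 1.4e-05 and 2.1e-05, both from the smallest permutation p that 100000 resamples can give). The lowest r was that of Srebf1 and Me1, at 0.56 (permutation, adjusted p = 3.5e-05), with rho = 0.51 (adjusted p = 0.000231), and the lowest rho was that of Srebf1 and Acaca, at 0.41 (permutation, adjusted p = 0.0082). Without the 2 livers farthest from the median of the first gene, mostly animals 303 and 906, r stayed between 0.44 (Srebf1 and Acaca) and 0.92 (Fasn and Acly). Within single groups of 8 animals r was positive in all 6 groups for 10 pairs, and in 5 of 6 groups for the others, 4 of which hold Srebf1 or Me1 with Acly or Acaca and 1 Srebf1 with Scd. Srebf1 and Me1 thus followed the 4 enzymes Acly, Acaca, Fasn and Scd less closely (r of 0.57 to 0.77) than these followed each other (0.81 to 0.93), a difference that was not tested.

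**Figure D4:**
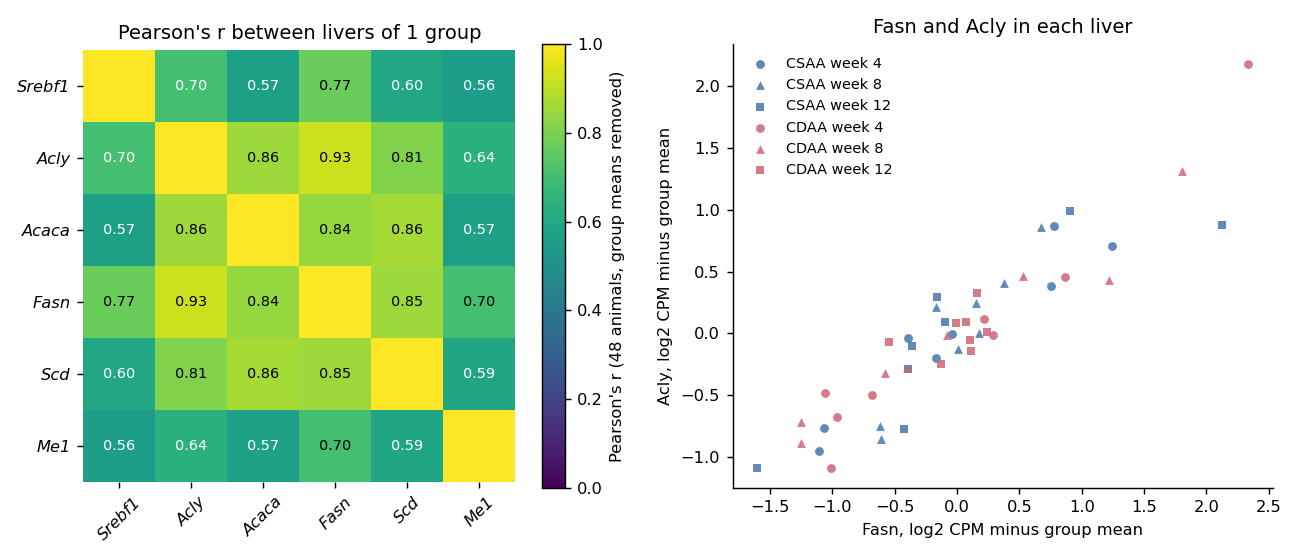
Left, Pearson's r (colour and number) between the genes over 48 livers with the group means removed. Right, log2 CPM minus the group mean of Fasn (x axis) and Acly (y axis) in each liver, with diet as colour and week as symbol. Fasn and Acly have the highest r (0.93) over all livers. Within single groups their r ranges from 0.37 to 0.97, and whether r differs between the groups was not tested.

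The genes most alike to each member were ranked by the same within-group r over 48 animals, among 12755 other tested genes, as a description. Acly ranked first for Fasn and Fasn first for Acly (r = 0.93) and for Srebf1 (r = 0.77). Acaca and Scd ranked 2nd for each other (r = 0.86), both after ENSRNOG00000020420, a gene without a name here (r = 0.91 with Scd and 0.88 with Acaca), which also ranked 2nd for Fasn (r = 0.87). Me1 had ENSRNOG00000008629 in the first place (r = 0.80) and its nearest member, Fasn, in place 4 (r = 0.70). Acly, Acaca, Fasn and Scd all stood within the first 9 places of each other. Srebf1 ranked 9th for Fasn, and Acly ranked 5th for Srebf1. In other cases Srebf1 and Me1 ranked far lower. For Acaca, Me1 ranked 197th and Srebf1 206th, for Acly, Me1 ranked 110th, and for Scd, Srebf1 ranked 77th and Me1 82nd.

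Per length, in RPKM, Scd had the highest level in all 48 livers, with group medians of 525 to 1209. On CSAA Acly came second with medians of 144 to 211 RPKM, above the next gene in all 8 livers of each week, followed by Srebf1 (53.6 to 81.5) and Fasn (54.4 to 70.8), whose order was not the same in all livers of any week, and by Me1 (22.2 to 25.5) and Acaca (12.4 to 28.1). On CDAA Srebf1 came second (47.7 to 68.9) and Acly next (37.1 to 42), with Srebf1 above Acly in 5, 7 and 7 of 8 livers at weeks 4, 8 and 12. Fasn fell from medians of 54.4 to 70.8 RPKM on CSAA to 15.5 to 21.7 RPKM on CDAA, where Me1 (21.2 to 29.4) was above it in 6, 6 and 4 of 8 livers. The RPKM of Srebf1 and Me1 overlapped between the diets at all 3 weeks, and at week 12 no CDAA liver lay below the lowest CSAA liver in either gene on this scale.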

How the data were processed

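Liver RNA of 48 rats (8 per diet and week) was sequenced from stranded poly-A libraries as single-end reads of 85 bases. The authors aligned the reads to Rnor_6.0 (Ensembl annotation) with STAR, assigned them to genes with featureCounts and deposited raw counts. RPKM values (reads scaled to gene length and library size) were deposited by the authors too, by a tool not given in the sources used here. Counts were fitted with edgeR 4.0.16 (R 4.3.3, TMM, quasi-likelihood, 1 coefficient per diet and week) over the 12756 genes that reached 1 CPM in 5 or more animals of a group, after a test on simulated data. limma-voom (limma 3.58.1), the method of the paper, and DESeq2 1.42.0 were alternatives, beside other scalings, no filter, RPKM with a pseudocount of 0.1 or 1, a correction for gene length and animals left out. Ratios of members (0.5 added to each count) and covariation (log2 CPM, prior count 2) were tested with scipy and numpy by permutation. The members, lists and alternatives were chosen with earlier results of these data known. All members are named, with the 3 genes most alike to each considered. Other genes of the pathway and markers of liver cell types were listed by symbol, and since the tables give identifiers without names, they were not analysed here. No batch is named in the labels. At this depth the spread between animals limits the precision.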

Additional observations from a re-analysis of the deposited data

Results flagged for a closer look

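In 36 sets of 8 animals (6 genes in 6 groups), 4 held a liver whose log2 CPM lay apart from the other 7, by a gap to the nearest liver above Dixon's critical value for 8 values, which chance alone flags in about 1 of 20 sets (1.8 of 36). They belong to 3 animals. Animal 303 (CDAA week 4) had 766 CPM of Acly against 79.7 to 233 CPM in the others. Animal 906 (CSAA week 12) had 195 CPM of Me1 against 47.3 to 85.3 CPM. Animal 1104 (CDAA week 12) was lowest, with 96.6 CPM of Fasn against 129 to 167 CPM and with 1418 CPM of Scd against 1921 to 2511 CPM. The effect of the diet on Acaca differed between weeks 8 and 12, by a log2 value of -1.36 in the test of the interaction (edgeR, adjusted p = 0.00408). Between these weeks the log2 fold change of Acaca was 1.33 on CSAA and -0.04 on CDAA.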

How the results depend on the processing

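Under 11 other settings and with each animal left out, Acly and Fasn kept their direction and their calls at all 3 weeks, as did Scd and Acaca at week 12. Without animals 303, 504, 908 and 1102, 5 of 6 genes passed at week 4, against 2926 of 12736 tested genes in either direction. In this setting 2 genes had a diet effect that differed between weeks 8 and 12. No gene passed in that interaction with limma-voom, library size alone, RPKM (pseudocount 0.1 or 1), the correction for gene length or without animals 1106 to 1108 (0 genes each). On CSAA from week 8 to 12, 1 gene passed with RPKM (either pseudocount) or the correction for gene length, which also gave 1 gene on CDAA from week 4 to 12. With 1 animal left out, the numbers ranged from 2 to 5 at week 4, from 1 to 2 on CSAA from week 8 to 12, from 0 to 1 on CDAA from week 4 to 12 and from 0 to 2 in the interaction, and stayed at 2 at week 8 and 5 to 6 at week 12. Of 2178 values for single genes 88 changed sign, none of which had passed (0) or then passed (0), most of them between weeks on CDAA (39 under other settings and 14 with 1 animal left out). Among the diet effects these were 5 values: Me1 in RPKM was 0.14 (pseudocount 0.1) and 0.13 (pseudocount 1) at week 4 and 0.054 (pseudocount 0.1) and 0.051 (pseudocount 1) at week 8, and Scd with library size alone was 0.23 at week 8. The numbers of pairs that differed (8, or 9 without the 4 animals at week 4) or varied together (15) held under their alternatives. The causes were not tested. No paired analysis was possible because the groups share no replicate numbers.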
